A study of Mus musculus with 18 samples.

Results

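The transcripts described here code for the subunits of the mitochondrial respiratory chain and ATP synthase, from the nuclear and from the mitochondrial genome. They were chosen by name: rows whose gene ID maps, in GENCODE M21 on GRCm38, to a protein-coding gene with a symbol starting Nduf, Uqcr, Cox4 to Cox8 or Atp5, or to 1 of the 13 mitochondrially coded protein genes, with a mean of at least 0.5 CPM (counts scaled to library size) over the libraries. The rule was met by 94 of the 48794 rows, 83 nuclear and 11 mitochondrial. The nuclear set held 37 complex I subunits, 8 complex I assembly factors (Ndufaf1 to Ndufaf8), 8 genes of complex III, 13 of complex IV and 17 of ATP synthase. The mitochondrial set held 6 genes of complex I, 1 of complex III, 3 of complex IV and 1 of ATP synthase. Another 8 rows matched by name but not by level. The closest of them was Cox6b2, at 0.49 CPM, and the lowest member was mt-Atp6, at 0.629 CPM; Cox6a2, at 0.893 CPM, was the lowest of the nuclear members.

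RNA was sequenced from bone marrow-derived macrophages of male C57BL/6 mice, cells grown from marrow for 7 days in 50 ng/ml of M-CSF, which drives precursors towards macrophages. All 3 groups were then held for 24 h in 10 ng/ml M-CSF. Control libraries received nothing else, the IL4_IL13 libraries received IL-4 and IL-13, and the IL4_IL13_TNFa libraries received IL-4, IL-13 and TNFa, at 10 ng/ml for each cytokine. Each group had 6 libraries, numbered 1 to 6, with 14793404 to 20056125 counts per library. The labels do not tie the numbers to separate mice or cultures, so each p-value reflects library-to-library spread alone, and that spread may be technical. The mice's age is not given in the labels.

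The respiratory chain passes electrons from NADH and succinate to oxygen through complexes I to IV, and ATP synthase uses the proton gradient this builds. Complexes I, III and IV and ATP synthase are assembled from proteins of both genomes: the mitochondrial genome codes for a few membrane-embedded core subunits, and nuclear genes code for all others, including those of complex II. IL-4 and IL-13 are known to drive macrophages into an alternatively activated state that relies on oxidative phosphorylation, while inflammatory activation is known to lower respiration.

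Of the 13 mitochondrial genes, 6 had very few counts in these files. Levels are compared here per kb of exon length. By this scale mt-Co1 (complex IV) was highest, with a mean of 4416 CPM per kb over all libraries, followed by mt-Cytb (complex III) with 2084 and, all of complex I, mt-Nd1 with 1798, mt-Nd5 with 1049, mt-Nd2 with 1040 and mt-Nd4 with 651. mt-Nd6, a complex I gene and the only 1 of the 13 on the other strand, stood at 54.8 CPM per kb. The other 6 genes lie next to each other, on the mitochondrial chromosome of GRCm38 from base 7013, the start of mt-Co2, to base 10173, the end of mt-Nd4l. They stood at 0.24 CPM per kb (mt-Nd4l) to 2.37 CPM per kb (mt-Nd3). mt-Atp8 and mt-Nd4l, with 33 and 22 counts in all, were below the level of the rule.

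The annotation lists 7 unprocessed pseudogenes on chromosome 1, between bases 24611535 and 24616197 of GRCm38, that carry copies of parts of this stretch of mitochondrial DNA. Aligned over coding sequence, the copies matched mt-Co2 at 681 of 681 bases, mt-Atp6 at 678 of 678, mt-Co3 at 783 of 783, mt-Nd4l at 294 of 294 and mt-Nd3 at 344 of 345. The first 60 bases of mt-Nd3 and of its copy, Gm28438, are shown because they hold the only position, in capitals, at which the aligned bases differ.

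mt-Nd3: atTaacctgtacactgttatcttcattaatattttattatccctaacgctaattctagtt
Gm28438: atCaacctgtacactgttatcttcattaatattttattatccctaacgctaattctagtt

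mt-Atp8 has a further limit on counting, because its last 43 bases are also the first 43 of mt-Atp6 (bases 7927 to 7969 of the mitochondrial chromosome), shown here as the stretch that both genes share.

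mt-Atp8 and mt-Atp6: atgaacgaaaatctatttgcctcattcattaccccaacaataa

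The copies of chromosome 1 also cover 31.3% of mt-Co1 (482 of 483 bases identical) and 63.6% of mt-Nd4 (876 of 876). The 7 copies themselves had little signal: their summed level ranged from 8.84 to 15.04 CPM in Control, from 12.1 to 24.3 CPM in IL4_IL13 and from 18.8 to 23.5 CPM in IL4_IL13_TNFa. How reads with equal matches were treated is not given in the sources used here, and the part of these copies in the low counts was not tested. Counts of mt-Co2, mt-Co3, mt-Atp6 and mt-Nd3 are therefore uncertain. The 7 other members, at a mean of 10 CPM or more, are called countable here: mt-Nd1, mt-Nd2, mt-Nd4, mt-Nd5, mt-Nd6, mt-Cytb and mt-Co1. The name rests on level alone, and mt-Nd4 is among them although a copy matches 63.6% of it. No subunit of ATP synthase is among these 7, and complex IV is represented by mt-Co1.

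**Figure D1:**
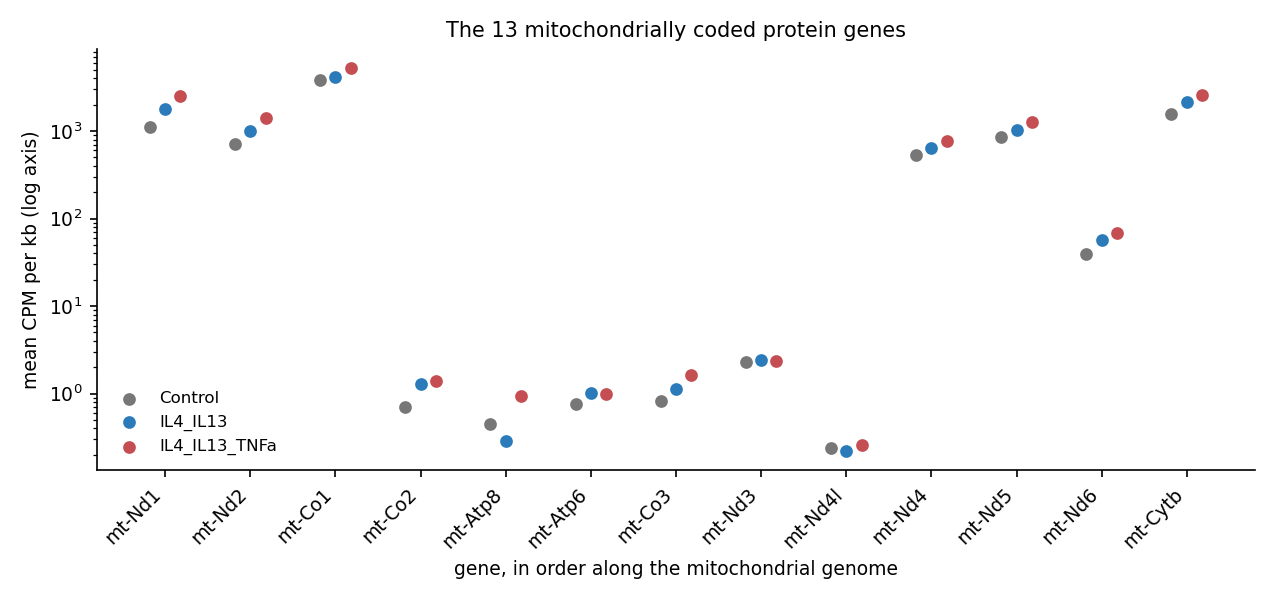
Mean CPM per kb of exon length (log axis) of the 13 mitochondrially coded protein genes, in their order along the mitochondrial genome, for Control (grey), IL4_IL13 (blue) and IL4_IL13_TNFa (red), 6 libraries each. The 6 neighbouring genes from mt-Co2 to mt-Nd4l lie at 0.22 to 2.42 CPM per kb, and the others at 39.3 CPM per kb or more.

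Near-identical copies (at least 98% identity over at least 50% of the coding sequence) were found for 15 of the 83 nuclear members too. In Atp5g2, Atp5l, Ndufb4 and Cox7c a processed pseudogene matched the whole coding sequence base for base. Per kb, Atp5l, Ndufb4, Atp5g2 and Cox7c ranked 1, 3, 6 and 23 from the bottom of the 83. The levels of these genes, and of the other members with a near-identical copy, are uncertain as well. Among nuclear members Atp5a1 (catalytic-head alpha subunit) was highest, at 232 CPM per kb, followed by Cox8a, Atp5b, Cox4i1, Cox6b1 and Cox6a1 at 219, 207, 194, 193 and 189 CPM per kb. These lengths are of all annotated exons together, which lowers the value of genes with long rarely used exons.

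As a check of the labelled cell type, all 8 macrophage markers were detected in every group. However, 7 of 8 fell in both comparisons with Control, where 29.7% and 37.3% of all genes tested were lower. Fcgr1 fell to 0.999 CPM with the 3 cytokines. The summed level of 20 cell cycle genes was 1156 to 4269 CPM in Control, 2447 to 4271 in IL4_IL13 and 461 to 664 in IL4_IL13_TNFa. With IL-4 and IL-13, 12 of 20 rose (20 with the replicate number as a block), and 20 fell when TNFa was added. Among all genes tested 29.3% were higher in the first of these comparisons and 29.3% lower in the second. Summed stromal markers (12 genes) ranged from 27.2 to 822 CPM, 76.2 to 699 CPM and 79.3 to 470 CPM; of the 10 tested 0 passed in edgeR without the block (0 at an unadjusted p under 0.05, and 0 in DESeq2 or limma voom), and with it 4 fell with added TNFa and 5 with the 3 cytokines. Markers of B cells summed to 10.1 to 117 CPM in Control and under 2 CPM with the 3 cytokines, those of dendritic cells to 1.26 to 3.64 and 34.9 to 37.9, those of mast cells, basophils and eosinophils to 1.12 to 2.17 and 49.0 to 55.8, and those of neutrophils to 20.5 to 35.01 and 60.3 to 80.1. Few genes carried the last 3 sums. With the 3 cytokines, 2 of 6 dendritic, 2 of 8 mast cell, basophil and eosinophil, and 2 of 10 neutrophil markers exceeded 1 CPM. Of the 2 dendritic cell markers tested, 1 rose and 1 fell against Control. T and NK cell and erythroid markers did not exceed 1.36 CPM in any library, with Cd3d, Hbb-bs, Hba-a1 and Alas2 at 0 in every group. The part of these cells and of cell division in the results below was not tested, and in bulk RNA fewer cells of a type and less RNA per cell cannot be told apart. Control replicate 1 stood apart: 74 of its 83 nuclear members lay above the mean of the other controls. The median log2 difference was 0.34 (0.07 for the 11 mitochondrial members). It also had the lowest macrophage and the highest cell cycle sum of its group, as did IL4_IL13 replicate 1 (7958 and 4271 CPM). IL4_IL13_TNFa replicate 1 had the highest cell cycle sum (664 CPM) but not the lowest macrophage sum.

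The nuclear members together were higher with each added stimulus. Their summed level was 4849, 3792, 3789, 3822, 3796 and 3885 CPM in Control replicates 1 to 6, 6057, 5827, 6258, 6215, 6515 and 6984 CPM in IL4_IL13, and 8884, 8837, 9311, 9185, 9218 and 9793 CPM in IL4_IL13_TNFa. No library of a group overlapped with another group, and the order of the 3 groups held in 6 of 6 replicate numbers. The group mean went from 3989 ± 423 CPM (SD, n = 6) to 6309 ± 402 and 9205 ± 345, a ratio of 1.58 for the first step and 1.46 for the second (1.67 and 1.46 without the libraries numbered 1).

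For the mitochondrial members the summed level was 10886 to 12602 CPM in Control (median 12030), 12352 to 16019 CPM in IL4_IL13 (median 14448) and 16202 to 19643 CPM in IL4_IL13_TNFa (median 18517). IL4_IL13 overlapped with Control through replicate 6, its lowest library, and the IL4_IL13_TNFa libraries lay above all others. The means differed by ratios of 1.22 in the first step and 1.27 in the second. The second depends on scaling: as a percentage of all counts in the library, mitochondrial members took 1.302 to 1.661 in IL4_IL13 and 1.47 to 1.76 in IL4_IL13_TNFa, which overlap, with a ratio of means of 1.10. The same ratio for nuclear members was 1.265, without overlap.

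**Figure D2:**
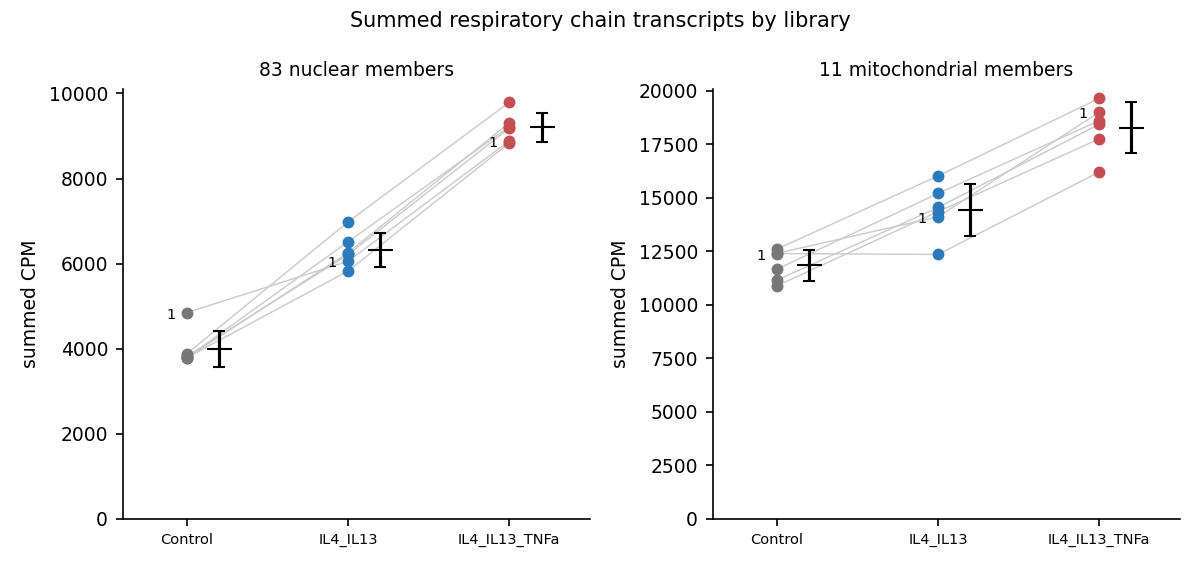
Summed CPM of the 83 nuclear (left) and 11 mitochondrial (right) members in each library, by group. Points are libraries, grey lines join libraries with the same replicate number, the digit 1 marks replicate 1, and black bars are the mean and SD of 6; both sums increase from Control to IL4_IL13_TNFa, with a wider gap between groups on the nuclear side.

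Because both sums are read from the same library, their ratio does not depend on scaling between libraries. Counts of mitochondrial members per count of nuclear members were 2.56, 2.87, 3.08, 3.30, 2.94 and 3.19 in Control replicates 1 to 6, 2.33, 2.46, 2.43, 2.58, 2.23 and 1.77 in IL4_IL13, and 2.14, 2.01, 2.00, 2.14, 2.00 and 1.65 in IL4_IL13_TNFa. The means were 2.99 ± 0.26, 2.30 ± 0.29 and 1.99 ± 0.18 (SD, n = 6). The ratio was lower in 6 of 6 replicate numbers in each step. Control and IL4_IL13 overlapped only in that Control replicate 1 (2.56) lay just under IL4_IL13 replicate 4 (2.58), and both groups with cytokines had their lowest value in replicate 6. No p is given, since the ratio is a score over chosen genes. It kept its order of groups without mt-Co1, the mitochondrial gene with the most counts (1.49, 1.26 and 1.11), and without the 20 members that have a near-identical copy (3.11, 2.36 and 2.03). Of those 20, 5 are mitochondrial, mt-Nd4 among them.

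Split by complex, the ratio moved unequally. For complex I it was 3.42 ± 0.25 in Control, 3.32 ± 0.43 in IL4_IL13 and 3.34 ± 0.32 in IL4_IL13_TNFa, with higher values in 3 of 6 and lower values in 3 of 6 replicate numbers in each step. For complex III, where mt-Cytb is the only mitochondrial gene, it went from 3.96 ± 0.29 to 3.43 ± 0.37 and 2.85 ± 0.24, lower in 6 of 6 numbers each time. For complex IV it went from 7.62 ± 0.59 to 5.58 ± 0.82 and 4.56 ± 0.45, again lower in 6 of 6, with no overlap between Control (6.58 to 8.28) and IL4_IL13 (4.04 to 6.20). The difference between complexes was not tested. The nuclear sum in the ratio over all members also holds ATP synthase, at means of 1484, 2677 and 4099 CPM in the 3 groups. It has no countable mitochondrial member, and its part in the lower ratio was not tested.

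**Figure D3:**
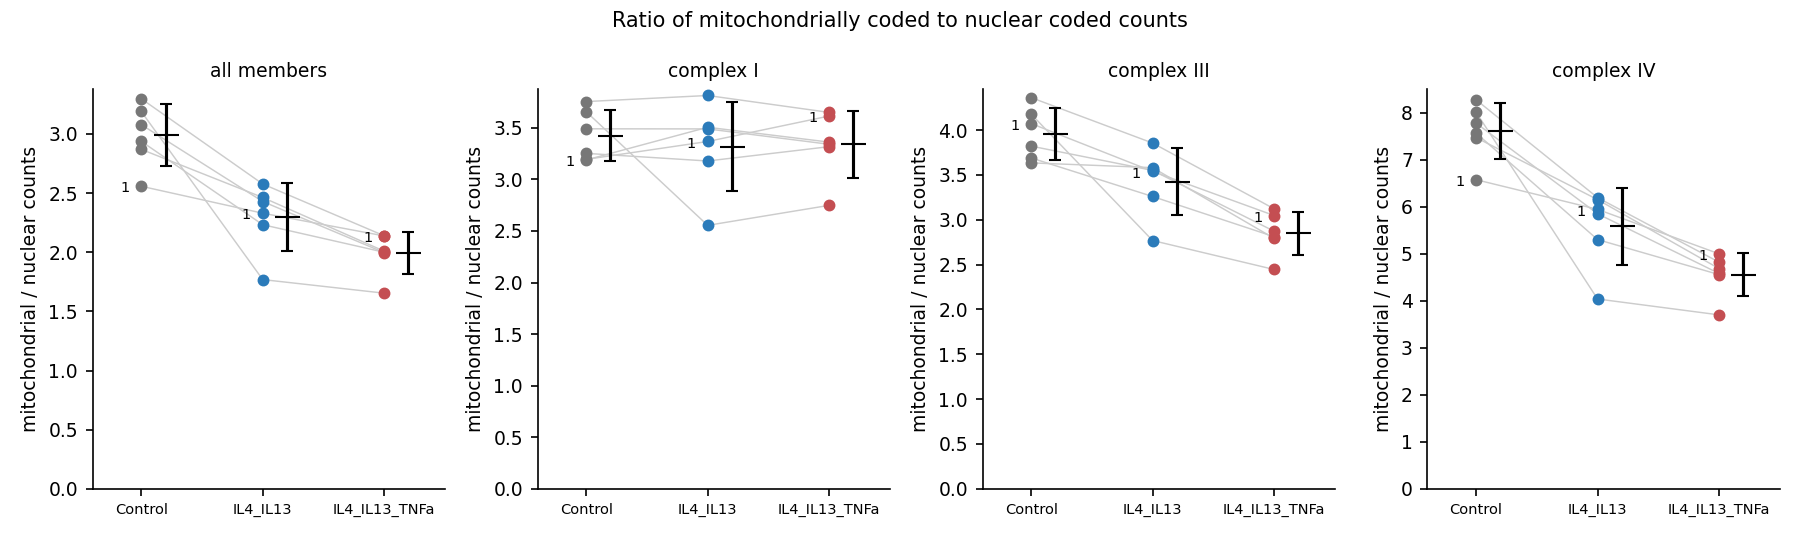
Counts of mitochondrially coded members divided by counts of nuclear members in each library, for all members and for complexes I, III and IV. Points are libraries, grey lines join the same replicate number, the digit 1 marks replicate 1, and black bars are the mean and SD of 6; the ratio for complex I stays near 3.4, while that for complex IV goes from 7.62 to 4.56.

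Gene by gene, IL-4 and IL-13 raised 73 of the 83 nuclear members and lowered 1, Atp5s, with 9 not past the threshold (edgeR's quasi-likelihood test, adjusted p under 0.05 over 13177 genes). Among all genes tested 59.0% passed, 29.3% higher and 29.7% lower. The median nuclear member rose 1.46-fold (log2 0.54, and 0.61 without Control replicate 1), against a log2 median of -0.002 for all genes. Libraries of the 2 groups did not overlap for 50 of the 83, against 26.7% of all genes (12.5% higher). Of the 11 mitochondrial members 7 rose and 4 did not pass (median log2 0.44), and of the 7 countable ones 6 rose (median 0.45).

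Adding TNFa raised 71 nuclear members, lowered 2 (Ndufv3 and Ndufaf7) and left 10 not past the threshold. Among all genes 59.6% passed, 30.3% higher and 29.3% lower. The nuclear median was 1.41-fold (log2 0.50), and 68 of the 83 did not overlap between the groups, against 44.9% of all genes (23.3% higher). Of the mitochondrial members 7 rose (median log2 0.29), which were the 7 countable ones (median 0.31). This step depends on scaling: with library totals in place of TMM factors the median of all genes shifts to -0.20, the calls that are higher go from 50.9% to 27.5% of all calls, and 59 nuclear and 2 mitochondrial members are called higher and 4 nuclear members lower (Ndufv3, Ndufaf7, Ndufa4 and Ndufb11). Measured from the median of all genes, the nuclear median was 0.50 higher and the mitochondrial median 0.29 higher. A change of scaling shifts all genes of a comparison nearly alike, so these differences cannot move with it and are no check of it.

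With the 3 cytokines against Control, 78 nuclear members were higher and 2 lower (Atp5s and Ndufaf7), and 9 of the 11 mitochondrial members, among them the 7 countable ones, were higher, where 73.8% of all genes passed (36.4% higher, 37.3% lower). The nuclear median was 2.03-fold (log2 1.02) and the mitochondrial median 1.66-fold (log2 0.73). Libraries did not overlap for 74 nuclear and 7 mitochondrial members, against 51.2% of all genes (26.1% higher). At least 2-fold changes were called for 43 nuclear members and for 1 mitochondrial member, mt-Nd1. With library totals these medians were 0.78 and 0.48 on the log2 scale, beside -0.27 for all genes. The 3 comparisons share their control or middle group, so their values are not independent of each other.

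**Figure D4:**
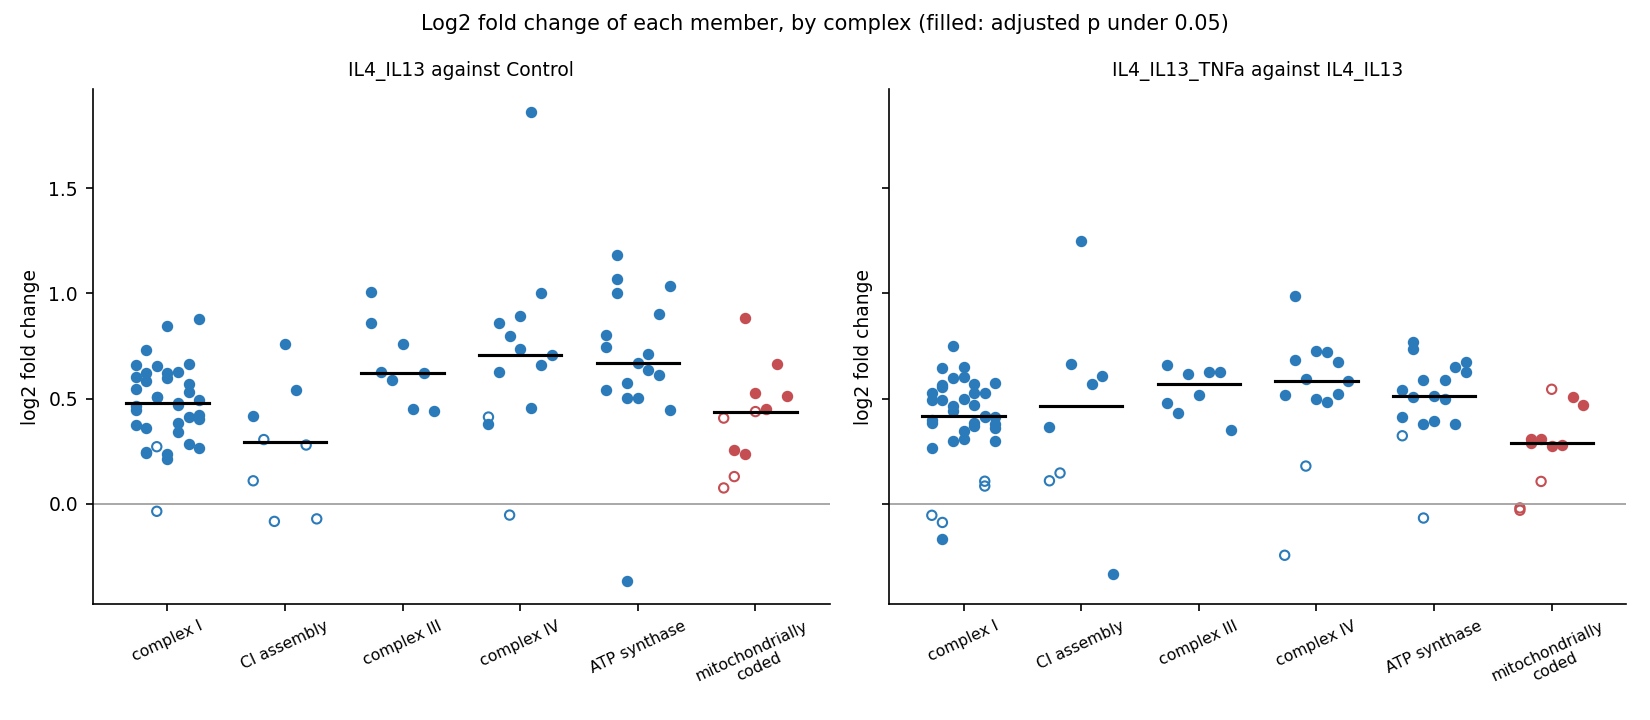
Log2 fold change (edgeR, TMM scaling) of each of the 94 members for IL4_IL13 against Control (left) and IL4_IL13_TNFa against IL4_IL13 (right), by complex for nuclear genes (blue) and together for mitochondrially coded genes (red). Filled points passed an adjusted p of 0.05, open points did not, and the black line is the median of each set; medians in the left panel run from 0.29 for the complex I assembly factors to 0.71 for complex IV.

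Among the 7 countable mitochondrial genes, mt-Nd1 and mt-Nd2 had the highest log2 fold changes for the 3 cytokines against Control (1.18 and 0.98). mt-Nd1, a membrane subunit of complex I, stood at 1335, 926, 994, 1095, 933 and 1110 CPM in Control, 1718, 1575, 1730, 1905, 1628 and 1591 CPM in IL4_IL13, and 2498, 2171, 2393, 2643, 2395 and 2335 CPM in IL4_IL13_TNFa. The groups did not overlap. Its log2 fold change was 0.67 ± 0.08 for IL-4 and IL-13 (adjusted p = 1.31e-06) and 0.51 ± 0.08 for TNFa (adjusted p = 2.28e-05), where ± is the approximate standard error from edgeR. mt-Nd2, another membrane subunit of complex I, rose by 0.51 and 0.47, also without overlap.

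mt-Co1, the catalytic core of complex IV, stood at 5838, 5646, 5907, 6265, 5712 and 6252 CPM in Control, 6327, 6574, 6897, 7089, 6612 and 5444 CPM in IL4_IL13, and 8399, 7927, 8244, 8440, 8196 and 7047 CPM in IL4_IL13_TNFa. IL4_IL13 replicate 6 was the lowest of the 18 libraries. The log2 fold change for IL-4 and IL-13 was 0.13 ± 0.06 (adjusted p = 0.0889), which passed the threshold without that library or without a filter on low counts, and the change with added TNFa was 0.31 ± 0.06 (adjusted p = 0.000344). With library totals the second change did not pass either.

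mt-Cytb, the cytochrome b of complex III, rose by log2 0.45 (adjusted p = 2.35e-05) and 0.28 (adjusted p = 0.00181). Its range went from 1556 to 2060 CPM in Control to 2186 to 2681 and 2683 to 3243 CPM. On TMM-scaled sizes the groups did not overlap, IL4_IL13 and IL4_IL13_TNFa only just. mt-Nd4 rose by 0.25 and 0.29, and mt-Nd6, read from the opposite strand, by 0.53 and 0.27. mt-Nd5 had log2 fold changes of 0.24 (adjusted p = 0.041) and 0.31 (adjusted p = 0.00971), with its lowest cytokine libraries again in replicate 6 (1378 and 1764 CPM). The first of these calls was lost in 8 of the 18 fits that left out 1 library, and with limma voom, library totals or the stricter filter. With library totals, the calls of mt-Cytb, mt-Nd4, mt-Nd5 and mt-Nd6 with added TNFa were lost. In the 4 members with uncertain counts mt-Co2 alone was called with IL-4 and IL-13 (log2 0.88, adjusted p = 0.00578), adjusted p was 0.074 to 0.959 with added TNFa, and mt-Co2 and mt-Co3 were called for the 3 cytokines (log2 0.99 and 0.98). Their means were 0.475 to 1.28 CPM. mt-Nd3 and mt-Atp6 were not called, with log2 fold changes of 0.04 and 0.39 for the 3 cytokines. The 2 mitochondrial ribosomal RNAs, mt-Rnr1 and mt-Rnr2, are no members, and their ranges overlapped between Control (86.5 to 177 and 326 to 556 CPM) and IL4_IL13 (112 to 136 and 425 to 540 CPM). In IL4_IL13_TNFa they were 145 to 205 and 520 to 680 CPM, for mt-Rnr1 above all of IL4_IL13.

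Counts by role and complex follow, beside which 29.3% of all genes were higher with IL-4 and IL-13 and 30.3% with added TNFa. The core subunits of the nuclear side were 13 genes. These are carriers of the complex I redox centres, the iron-sulfur and core proteins of complex III and the catalytic head of ATP synthase. All 13 rose with IL-4 and IL-13 and 12 of 13 with TNFa, the exception being Ndufs8 (log2 0.11, adjusted p = 0.269), or 11 of 13 with library totals. In complex I, Ndufs1, Ndufv1, Ndufv2 and Ndufs7, which hold iron-sulfur clusters or the NADH site, had log2 fold changes of 0.53, 0.49, 0.60 and 0.47 in the first step and 0.41, 0.41, 0.40 and 0.57 in the second. Ndufs3, another core subunit, rose by 0.37 and then by 0.53.

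Over all 37 nuclear subunits of complex I, 35 rose with IL-4 and IL-13 (median log2 0.48) and 32 rose and 1 fell with TNFa (median 0.42), or 25 and 3 with library totals. The accessory subunits Ndufb6 and Ndufc1 led the first step, at 0.88 and 0.84. In the second, Ndufs5 (0.75) and Ndufc1 (0.65) led. Ndufs5 was not called in the first step (log2 0.27, adjusted p = 0.128) but passed without Control replicate 1. Ndufb4 was called in both steps (0.39 and 0.37), yet it lost its first call in 7 and its second in 4 of the 18 fits without 1 library, and it is a gene with an identical pseudogene.

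A few complex I members kept to another course. Ndufa6, an accessory subunit, had 23.8 to 34.9 CPM in Control, 25.1 to 34.8 CPM in IL4_IL13 and 42.3 to 49.4 CPM in IL4_IL13_TNFa. Its first 2 groups overlapped fully (log2 -0.04, adjusted p = 0.757), while with TNFa all 6 libraries lay above them (log2 0.60 ± 0.09, adjusted p = 2.08e-05). Ndufa4 is named for complex I but is now counted by many as a subunit of complex IV. It stood at 55.4, 34.8, 36.2, 35.3, 35.4 and 36.0 CPM in Control, 57.8, 55.4, 59.5, 61.1, 64.6 and 69.5 CPM in IL4_IL13, and 53.3, 52.1, 60.4, 59.4, 61.0 and 68.0 CPM in IL4_IL13_TNFa. Apart from Control replicate 1 the controls lay well under both other groups, which overlapped with each other. Ndufa4 rose with IL-4 and IL-13 (log2 0.66 ± 0.10, adjusted p = 3.08e-05) and had a log2 fold change of -0.06 with TNFa (adjusted p = 0.667). With library totals the second value passed as a fall.

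Ndufv3, a small accessory subunit of the NADH-binding arm, had 29.1 to 34.0 CPM in Control, 32.9 to 40.6 CPM in IL4_IL13 and 30.3 to 37.8 CPM in IL4_IL13_TNFa. It was the only complex I subunit that rose in the first step (log2 0.25, adjusted p = 0.00291) and fell in the second (log2 -0.17 ± 0.06, adjusted p = 0.0316, lower in 6 of 6 numbers). The fall was lost in 7 of the 18 fits that left out 1 library. For the 3 cytokines against Control its log2 fold change was 0.08 with TMM scaling and -0.17 with library totals, which passed as a fall (adjusted p = 0.0264). Ndufb11 showed 0.24, -0.09 (not past the threshold) and 0.15 in the 3 comparisons, the last of which turned to -0.10 with library totals and was lost in 6 of the fits without 1 library.

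Of the 8 assembly factors, which help to build complex I and do not stay in it, 3 rose with IL-4 and IL-13, and 5 rose and 1 fell with TNFa. The rises are a share of 37.5% in the first step, where 59.0% of all genes passed in either direction and 29.3% were higher. In the second they are 62.5%, where 59.6% of all genes passed and 30.3% were higher. Ndufaf4 (chromosome 4, 24898083 to 24905001) had the largest change of any nuclear member with added TNFa. It had 16.1, 8.57, 7.99, 8.29, 8.71 and 9.79 CPM in Control, 20.1, 15.9, 15.5, 16.5, 15.7 and 17.2 CPM in IL4_IL13, and 39.4, 37.9, 40.7, 41.9, 38.3 and 41.8 CPM in IL4_IL13_TNFa. Replicate 1 was the highest of both earlier groups, and its control overlapped with IL4_IL13. The log2 fold changes were 0.76 ± 0.14 (adjusted p = 0.000101) and 1.25 ± 0.13 (adjusted p = 1.31e-07). Ndufaf7, a mitochondrial methyltransferase, went the other way with TNFa, from 11.3 to 12.9 CPM down to 8.56 to 10.6 CPM, without overlap (log2 -0.33 ± 0.09, adjusted p = 0.00241). Ndufaf2 and Ndufaf6 were not called in the first step (adjusted p = 0.0928 and 0.0558), and both were without Control replicate 1 (Ndufaf6 also with limma voom and without 2 other libraries in turn).

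All 8 nuclear members of complex III rose in each step, with median log2 fold changes of 0.62 and 0.57. With library totals 6 of the 8 rose with TNFa, without Uqcrq and Uqcrh. Uqcrq, a small subunit next to cytochrome b, had 28.4 to 53.5 CPM in Control (median 30.5), 58.9 to 75.2 CPM in IL4_IL13 and 83.2 to 103 CPM in IL4_IL13_TNFa. The groups did not overlap, although Control replicate 1 held the 53.5 CPM. Its log2 fold changes were 1.01 ± 0.13 (adjusted p = 1.93e-06) and 0.48 ± 0.12 (adjusted p = 0.00242). Uqcr10 rose by 0.86 and 0.66. The core proteins Uqcrc1 and Uqcrc2 rose by 0.76 and 0.45 and then by 0.52 and 0.62, and the Rieske iron-sulfur protein Uqcrfs1 by 0.62 and 0.63.

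In complex IV 11 of 13 nuclear members rose in each step, with medians of 0.71 and 0.58. Cox5a (chromosome 9, 57521274 to 57532426), which surrounds the catalytic core together with Cox5b, had 88.9, 63.6, 59.5, 59.6, 62.8 and 65.9 CPM in Control, 114, 111, 117, 120, 124 and 141 CPM in IL4_IL13, and 230, 228, 248, 226, 240 and 270 CPM in IL4_IL13_TNFa. No groups overlapped. It rose by 0.86 ± 0.09 (adjusted p = 1.32e-07) and 0.99 ± 0.09 (adjusted p = 1.12e-08), 3.6-fold over both steps by its means. Cox8a, a small membrane subunit, had 59.7 to 80.7 CPM in Control, 114 to 149 CPM in IL4_IL13 and 197 to 231 CPM in IL4_IL13_TNFa. It rose by 1.00 and 0.68, and Cox7b rose by 0.89 and 0.73.

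Complex IV has paired isoforms with different tissue use, and most counts in the macrophages came from the general forms. Cox4i1 rose from 210 to 223 CPM in Control to 247 to 319 and 375 to 423 CPM (log2 0.38 and 0.52), while its low-oxygen isoform Cox4i2 had 12 counts over all libraries. Cox6b1 rose by 0.66 and 0.52, beside 149 counts for the testis form Cox6b2. Cox8b and Cox8c had 0 of 305415530 counts, which allows up to 0.00982 CPM by 3 counts. Cox7b2 had 1 count, and Ndufa4l2, the relative of Ndufa4 induced at low oxygen, had 3.

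The muscle and heart form Cox6a2 was the lowest of the nuclear members and rose too. It had 0.116 to 0.481 CPM in Control, 0.431 to 1.73 CPM in IL4_IL13 and 0.876 to 2.05 CPM in IL4_IL13_TNFa. Neighbouring groups overlapped, and Control and IL4_IL13_TNFa did not. Its log2 fold change was 1.86 ± 0.36 with IL-4 and IL-13 (adjusted p = 0.000246) and 0.72 ± 0.29 with TNFa (adjusted p = 0.0419), the second call being lost in 9 of the 18 fits without 1 library. The general form Cox6a1 rose by 0.73 and 0.50 from a mean of 79.3 CPM. Among the Cox7a forms Cox7a2 rose by 0.62 and 0.68. Cox7a1, the muscle form, had log2 fold changes of 0.41 and -0.25 at means of 1.18 to 1.57 CPM, neither past the threshold.

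Cox7a2l is a relative of Cox7a2 that takes part in joining complexes III and IV into supercomplexes. It had 67.9, 107, 112, 107, 113 and 118 CPM in Control, 73.9, 95.2, 104, 91.7, 120 and 116 CPM in IL4_IL13, and 101, 110, 117, 107, 126 and 118 CPM in IL4_IL13_TNFa. Replicate 1 was the lowest of each group, and the groups overlapped. None of its comparisons passed: -0.05 (adjusted p = 0.72) for IL-4 and IL-13, 0.18 (adjusted p = 0.217) for TNFa, and 0.13 (adjusted p = 0.36) for the 3 cytokines. With the replicate number as a block, the change with TNFa did (adjusted p = 0.0167), higher in 6 of 6 numbers.

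**Figure D5:**
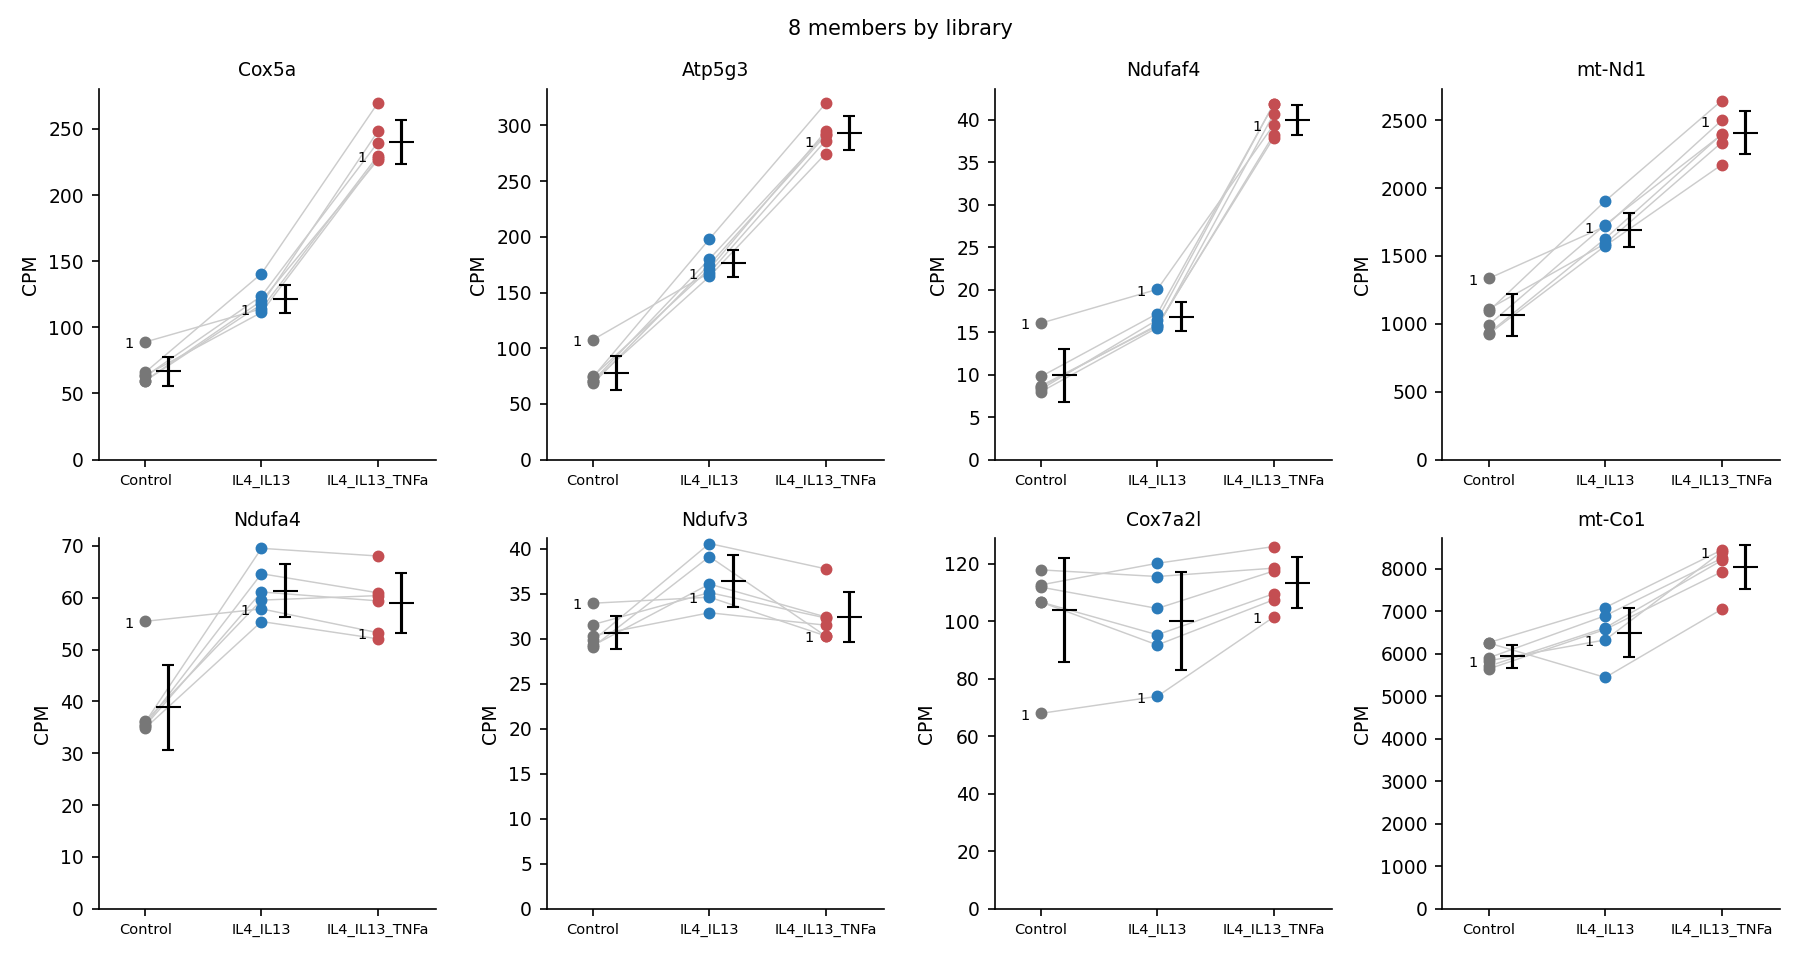
CPM of 8 members in each library: Cox5a, Atp5g3, Ndufaf4 and mt-Nd1 in the upper row, and Ndufa4, Ndufv3, Cox7a2l and mt-Co1 in the lower row. Points are libraries, grey lines join the same replicate number, the digit 1 marks replicate 1, and black bars are the mean and SD of 6; the upper 4 are higher in each step, and Cox7a2l overlaps between all groups.

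ATP synthase had the largest summed level of the nuclear sets, and 16 of its 17 rose with IL-4 and IL-13 and 15 with TNFa (medians 0.67 and 0.51). Atp5b, the catalytic beta subunit (chromosome 10, 128083273 to 128090391), had 603, 376, 337, 357, 337 and 362 CPM in Control, 845, 784, 808, 820, 833 and 884 CPM in IL4_IL13, and 1393, 1372, 1447, 1410, 1374 and 1467 CPM in IL4_IL13_TNFa. The groups stood clear of each other even with the high Control replicate 1. It rose by 1.07 ± 0.11 (adjusted p = 1.53e-07) and 0.77 ± 0.11 (adjusted p = 6.46e-06). Atp5a1 and Atp5c1, the alpha and gamma subunits, rose by 0.80 and 0.57 and then by 0.54 and 0.59.

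The c subunit, which forms the rotating ring, comes from 3 genes whose mature proteins are the same. Atp5g3 (chromosome 2, 73908447 to 73911326) had 108, 70.3, 68.3, 74.9, 70.7 and 74.2 CPM in Control, 168, 164, 175, 171, 180 and 198 CPM in IL4_IL13, and 287, 275, 291, 295, 293 and 320 CPM in IL4_IL13_TNFa. No groups overlapped, with changes of 1.18 ± 0.09 (adjusted p = 2.85e-09) and 0.74 ± 0.09 (adjusted p = 8.39e-07). Atp5g1 rose by 1.03 and 0.67; a processed pseudogene matches it at 407 of 408 coding bases. Atp5g2, with identical pseudogenes, was called in the first step (0.54, adjusted p = 0.0137) and not in the second (0.32, adjusted p = 0.113). Per kb, Atp5g3 was the most abundant of the 3, with 83.6 CPM per kb against 5.32 for Atp5g1 and 1.77 for Atp5g2, but the levels of the last 2 are uncertain through their copies.

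Atp5s, also called factor B or the coupling factor, was the member of ATP synthase that fell. It had 3.31 to 4.85 CPM in Control, 3.02 to 3.33 CPM in IL4_IL13 and 2.26 to 3.69 CPM in IL4_IL13_TNFa. Control replicate 1 (3.31 CPM) overlapped with IL4_IL13. The change was -0.37 ± 0.12 with IL-4 and IL-13 (adjusted p = 0.0113, lower in 6 of 6 numbers) and -0.07 with TNFa (adjusted p = 0.653). The first call was lost when genes were not filtered by level.

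Other genes of the pathway were counted from lists, and their values are given with TMM scaling only. With library totals the median of all genes with added TNFa was -0.20, so small rises in that step depend on scaling. Of 10 further subunits tested, among them complex II and cytochrome c, 8 rose with IL-4 and IL-13, 9 with TNFa and 10 with the 3 cytokines. Among all genes 29.3%, 30.3% and 36.4% were higher in these comparisons. Sdha, Sdhb, Sdhc and Sdhd, the 4 subunits of complex II, which has no mitochondrially coded part, rose by 0.63, 0.72, 0.70 and 0.91 and then by 0.61, 0.64, 0.35 and 0.72. Cyc1, the cytochrome c1 of complex III, rose by 0.93 and 0.78. Of 24 mitochondrial proteins outside the chain, 22 rose in the first step and 23 in the second, with medians of 0.54 and 0.50, close to those of the nuclear members (0.54 and 0.50). Slc25a5, an ADP/ATP carrier, rose by 1.29 and 0.67, and the chaperone Hspd1 by 0.92 and 0.97.

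Among factors that assemble the complexes, 43 were tested. In the first step 20 rose and 1 fell, and in the second 25 rose and 2 fell, with medians of 0.21 and 0.23. The second median is close in size to the shift of all genes with library totals (-0.20). Those called in either direction were 48.8% and 62.8%, near the 59.0% and 59.6% of all genes. Most of these calls were rises, while all genes were split evenly: 29.3% and 30.3% were higher and 29.7% and 29.3% lower. Fmc1, an ATP synthase assembly factor, and Lyrm7, which matures the Rieske protein, rose by 1.10 and 0.95 with IL-4 and IL-13, while Surf1, a complex IV factor, fell by 0.38 on the log2 scale. With TNFa, Ttc19 and Coa5 rose by 1.21 and 1.01, and Cmc2 and Bcs1l had changes of -0.96 and -0.32.

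Among 35 genes that maintain, transcribe or process mitochondrial DNA and RNA, 13 rose and 4 fell with IL-4 and IL-13, and 18 rose and 4 fell with TNFa. Those called in either direction were 48.6% and 62.9%, again near the share of all genes, but with more rises than falls. Both subunits of the mitochondrial DNA polymerase fell in both steps: Polg by 0.45 and then 0.28 on the log2 scale (-0.45 and -0.28), and Polg2 likewise (-0.65 and -0.59). The mitochondrial RNA polymerase Polrmt had changes of 0.10 (adjusted p = 0.25) and 0.18 (adjusted p = 0.0333). Tfam, which packages the DNA and starts transcription, rose by 0.32 and then had a change of -0.15 (adjusted p = 0.0877). Lrpprc, which stabilises mitochondrial messenger RNA, rose by 0.50 and 0.57, and Fastk, known for keeping up mt-Nd6, rose by 0.52 and 0.78. Pde12, which removes poly(A) tails in mitochondria, rose by 1.29 in the first step.

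Among 14 tested regulators of nuclear respiratory genes, 5 rose and 3 fell with IL-4 and IL-13, and 6 rose and 5 fell with TNFa, which is 57.1% and 78.6% called beside 59.0% and 59.6% of all genes. The coactivator Ppargc1b rose most, from a mean of 2.96 to 27.6 and 58.6 CPM (log2 3.23 and 1.09); its relative Ppargc1a was below the level for testing. The nuclear receptor Esrra, a partner of these coactivators, rose by 0.40 and 0.76. Nrf1 and Gabpa, the factors first described at promoters of respiratory genes, had changes of 0.04 (adjusted p = 0.542) and 0.22 (adjusted p = 0.00207) in the first step and fell in the second (-0.41 and -0.43). Pparg rose by 1.5 and then fell by 1.44 on the log2 scale.

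Promoter windows from RefSeq (GRCm38.p6, from 250 bases before to 50 after the start) were found for 68 of the 83 nuclear members and searched on both strands for 4 sets of letters. The palindromic NRF1 motif, whose letters are the capitals in the first 3 lines below, was present in 7 of the 68 (10.3%), against 2.42% of the tested genes with a window and 1.07% of all 27025 genes. The YY1 motif was present in 7.35%, 1.85% and 0.755%, CCGGAAG, the ETS motif that GABP reads, in 23.5%, 20.7% and 9.93%, and TCAAGGTCA, the motif of the ERR receptors, in 1.47%, 0.318% and 0.466%. A match is not evidence of binding. The stretches below are on the gene's strand, 5′ to 3′, with the motif in capitals, and show 3 members with the NRF1 letters and the upstream 120 bases of Atp5g3, the only member with the ERR letters (as their reverse complement).

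Ndufa11 (chr17:56717687-56717726, + strand): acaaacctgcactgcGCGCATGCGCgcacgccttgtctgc
Cox6a1 (chr5:115349096-115349135, - strand): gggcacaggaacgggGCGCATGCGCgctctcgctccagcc
Ndufaf4 (chr4:24897955-24897994, + strand): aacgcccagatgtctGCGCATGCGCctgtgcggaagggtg
Atp5g3 (chr2:73911327-73911446, - strand): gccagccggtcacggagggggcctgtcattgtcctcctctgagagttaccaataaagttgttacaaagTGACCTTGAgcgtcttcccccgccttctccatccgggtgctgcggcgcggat

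The 7 members with the NRF1 letters had a median log2 fold change of 1.23 for the 3 cytokines against Control, and the 61 without them 1.00. For the ETS letters the medians were 0.98 (16 members) and 1.03 (52 members). These are descriptions of chosen genes, with no test.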

How the data were processed

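Poly(A) RNA of 18 samples was sequenced from stranded libraries, per the labels' protocols. The deposited table holds raw counts (whole numbers with unequal library totals). In the submitters' processing notes are named STAR 2.5.2 and 2.5.2b, featureCounts 1.5.1 and RSEM 1.3.0 with GRCm38; the step each served, the annotation release, the strand setting and the handling of multiply matching reads were not given in the sources used here. Symbols came from GENCODE M21 (48348 of 48794 rows matched).

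With edgeR 4.0.16 in R 4.3.3, filterByExpr (minimum count 10) left 13177 genes, among them all 94 members; these were scaled by TMM and fitted together by the robust quasi-likelihood model. CPM uses TMM-scaled library sizes. The members, lists and tests were chosen with earlier results of these data known. Named genes were all mitochondrial genes, the 2 largest rises and falls per complex and comparison, members opposite to their complex, isoform sets, core subunits, and the 2 largest of each pathway list in each direction with some named regulators; fewer are printed here, some members' single values are not reported here, and Ndufa6, Ndufb4, Ndufb11, Ndufaf2, Ndufaf4, Ndufaf6 and the ribosomal RNAs were added after their values were seen. Same-numbered libraries deviated together (correlation 0.128 to 0.671 in 18 of 18 pairs), so the pairing of numbers comes from the data and has no label behind it. No library was a copy of another in its group (lowest chi-square per degree of freedom 2.64 over 45 pairs within groups), and pairs between groups were not checked. Near copies were found with BLAST 2.17.0. The fit was tested on simulated counts with 200 changed genes. Alternatives were DESeq2 1.42.0 (size factors and test), limma 3.58.1 (voom), library totals, scaling without the members, no filter, a filter of 5 CPM in 6 libraries, a replicate block, only the 2 groups compared, and libraries left out; leaving out members with a near-identical copy was chosen after seeing the data.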

Additional observations from a re-analysis of the deposited data

Results flagged for a closer look

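Within a group of 6, a library was listed where its gap to the nearest library, as a share of the group's range, exceeded Dixon's 95% critical value, which chance gives in about 1 in 20 groups. Over the 94 members in 3 groups there were 48 such values, 40 of them from Control replicate 1. That library held the highest control value of the summed nuclear members (4849 CPM, next 3885), complex I (1410 CPM, next 1184), the complex I assembly factors (81.1 CPM, next 63.8), complex III (506 CPM, next 442), complex IV (888 CPM, next 780) and ATP synthase (1964 CPM, next 1425). Among members shown by library it was highest in Atp5b (603 CPM, next 376), Atp5g3 (108 CPM, next 74.9), Cox5a (88.9 CPM, next 65.9), Ndufa4 (55.4 CPM, next 36.2), Uqcrq (53.5 CPM, next 32.0) and Ndufaf4 (16.1 CPM, next 9.79), and lowest in Cox7a2l (67.9 CPM, next 107). Its cell cycle sum, 4269 CPM, was also the highest of the controls, as was that of replicate 1 in each of the other groups. The part of this in the values was not tested.

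IL4_IL13_TNFa replicate 6 had the lowest ratio of mitochondrial to nuclear counts of its group (1.65, next 2.00), the lowest mt-Nd5 (1764 CPM, next 2337) and mt-Co1 (7047 CPM, next 7927), and the highest Ndufv3 (37.8 CPM, next 32.4). IL4_IL13 replicate 4 was lowest in mt-Nd6 (25.3 CPM, next 29.4), and IL4_IL13 replicate 1 was highest in Ndufaf4 (20.1 CPM, next 17.2).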

How the results depend on the processing

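Across the alternatives of scaling, filter, test and libraries, the numbers of nuclear and mitochondrial members called higher stayed within 1.5 times the reported ones in all 3 comparisons, with 1 exception: with library totals 2 mitochondrial members, mt-Nd1 and mt-Nd2, were called higher with added TNFa, in place of 7. The small numbers called lower varied, and the cause was not tested. For IL-4 and IL-13 they were 0 with no filter and 0 with the stricter filter, in place of 1 nuclear member. For added TNFa they were 4 with library totals and 1 with no filter, in place of 2, and 1 to 2 with each library left out. For the 3 cytokines the stricter filter gave 1 in place of 2. With each library left out, 72 to 76, 69 to 71 and 77 to 78 nuclear members were called higher in the 3 comparisons. Without mt-Co1 the ratio of mitochondrial to nuclear counts moved to 1.488, 1.265 and 1.114, since that gene holds the most mitochondrial counts, and with each library left out the group means were 2.93 to 3.08, 2.25 to 2.41 and 1.96 to 2.06. Single members that reversed with library totals were Ndufv3 (-0.168) and Ndufb11 (-0.096), both for the 3 cytokines against Control; the median of all genes is shifted by the same scaling. With the replicate number as a block, 73, 72 and 78 nuclear and 7, 7 and 9 mitochondrial members were called higher; the pairing changed no call of a member other than that of Cox7a2l. Depth limits the members under 2 CPM (Cox6a2, Cox7a1, mt-Co2, mt-Co3, mt-Atp6 and mt-Nd3).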

Other observations

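AA467197 (Nmes1), a gene outside the naming rule that is related in sequence to Ndufa4 and was looked up after its values were seen, had a mean of 1.59 ± 0.95 CPM in Control, 11.5 ± 1.7 in IL4_IL13 and 285 ± 27 in IL4_IL13_TNFa (SD, n = 6). The groups did not overlap. Its log2 fold changes were 2.82 ± 0.23 with IL-4 and IL-13 (edgeR adjusted p = 9.94e-09) and 4.62 ± 0.20 with added TNFa (adjusted p = 5.33e-13), over the step in which Ndufa4 itself had a change of -0.06. The gene is also known as the host of a microRNA, and the counts do not tell its products apart.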
